A study of Mus musculus with 12 samples.

Results

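Hearts of 12 mouse embryos at E15.5 were ordered by their signal of Hbb-y, an embryonic beta-type globin, and the 6 hearts with the higher signal were set against the 6 with the lower signal, which takes in all 12 hearts of the series. The order came from the brighter of the 2 Hbb-y probes on the array, and the other probe gave the same 2 sides. Each heart was hybridized to 1 Illumina WG-6 mouse array. The hearts came from 3 WT embryos, 4 MatKO embryos, which inherited the Ddc_exon1a deletion from the mother, 4 PatKO embryos, which inherited it from the father, and 1 KO embryo with both copies deleted. Ddc_exon1a, which encodes the serotonin-making enzyme DDC in heart, is expressed from the paternal copy, so MatKO hearts keep it. All embryos came from a gene-trap line on a mixed genetic background, homozygous embryos are recovered below the Mendelian number, and the KO group is a single heart. The hearts were dissected whole and snap frozen without a treatment, and which embryos shared a litter, or which of the pair of six-lane slides held each array, is not stated in the labels or methods.

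In the mouse, the first red cells arise in the yolk sac, circulate with a nucleus and carry the embryonic globins Hbb-y, Hbb-bh1 and Hba-x, while red cells made later in the fetal liver carry adult globins. As development goes on, by a timing of its own, the heart muscle turns from a proliferating, glucose-using tissue with an inner mesh of trabeculae. It moves towards one that burns fatty acids and stores energy as phosphocreatine. Blood in the chambers and vessels is part of a whole-heart sample, so red cell transcripts are measured together with those of muscle.

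On the higher side, the Hbb-y signal in log2 units was 15.30 in KO 1, 15.08 in WT 1, 14.90 in MatKO 2, 14.73 in MatKO 1, 14.72 in MatKO 4 and 14.59 in WT 2. On the lower side it was 14.10 in MatKO 3, 14.02 in PatKO 1, 13.12 in PatKO 4, 12.69 in WT 3, 12.59 in PatKO 2 and 12.53 in PatKO 3. The boundary therefore fell between WT 2 and MatKO 3, 0.49 apart, while the largest gap between neighbours, 0.91, lay within the lower side, between PatKO 1 and PatKO 4. The sides were thus chosen by the Hbb-y values, which were not tested. The highest of them lay close to the array maximum, where signals are compressed.

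The sides were unequal in genotype and sex. All 4 PatKO hearts were on the lower side and the KO heart on the higher, so only WT, with 2 hearts higher and 1 lower, and MatKO, with 3 higher and 1 lower, had hearts on both sides. For PatKO and KO, genotype and Hbb-y side cannot be told apart. Xist, the transcript that marks female cells, was at 5.99 in MatKO 3, 4.75 in PatKO 1 and 5.13 in PatKO 3 and between 12.57 and 13.52 in the other hearts, so all 3 hearts without clear Xist signal were on the lower side. Ddc, the deleted gene, was at 9.12 in KO 1 and between 10.22 and 10.44 in the PatKO hearts, against 13.42 to 14.12 in WT and MatKO hearts, as the labels have it. The muscle markers Myh6, Myh7, Actc1 and Nkx2-5 were well above background in every heart, with lowest values of 14.26, 13.24, 14.85 and 11.77. Tnnt2 and Mki67 were not matched to a probe here. Liver-secreted transcripts, listed as a sign of liver tissue or liver-derived RNA, varied over a wide range on both sides. The list mean was highest in KO 1 at 9.34, and on the lower side it was raised in PatKO 1 at 8.71, PatKO 4 at 8.57, PatKO 2 at 8.13 and MatKO 3 at 7.69, while MatKO 4 was at 7.25, WT 1 at 5.94 and PatKO 3 at 5.71. Of 30 liver genes, 29 were lower and 1 higher on the side with higher Hbb-y, with a median of -0.70 in log2, and -0.73 with genotype in the fit, but none had an unadjusted p under 0.05 between the sides and none was called in limma. The sign of this median turned when the Hbb-y level and genotype entered the fit together. It also turned with the liver list mean as a covariate, but that mean is made from these same genes. Such a fit takes out their shared signal, so the sign left there is no result. The part of sex, litter, slide and liver signal in the differences below was not tested beyond the fits named there.

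The other embryonic globins followed Hbb-y. Hba-x, the embryonic alpha-type globin, was at 13.36 in KO 1, 12.03 in WT 1, 11.56 in MatKO 2, 11.48 in MatKO 1, 11.77 in MatKO 4 and 12.01 in WT 2. On the lower side it was at 11.40 in MatKO 3, 11.37 in PatKO 1, 10.71 in PatKO 4, 10.52 in WT 3, 10.14 in PatKO 2 and 10.27 in PatKO 3. The sides did not overlap, but the lowest heart of the higher side and the highest of the lower side were almost equal, and the difference of 1.30 ± 0.32 (SE) in log2 had an adjusted p of 0.363 in limma. Hbb-bh1, an embryonic beta-type globin, had its lowest, median and highest values at 8.85, 9.52 and 10.72 on the higher side and 7.08, 8.31 and 8.95 on the lower, where MatKO 3 stood above MatKO 2 of the higher side. Its difference was 1.48 ± 0.37, with an adjusted p of 0.363. A dim second probe of Hbb-bh1, with a mean of 5.63, was 0.31 ± 0.17 in the other direction. When the Hbb-y level entered the fit as a number in place of the sides, Hba-x was 0.79 ± 0.10 higher and Hbb-bh1 0.89 ± 0.13 higher per log2 unit of Hbb-y, with adjusted p of 0.00814 and 0.0137. Because these genes share source cells and sequence with Hbb-y, their values describe the split and are no independent finding. Adult globin signals were at the array ceiling, from 15.41 to 15.53 for Hba-a1 and from 15.37 to 15.59 for Hbb-bs, so the array could not resolve them. Another beta-type probe, assigned to Hbb-b2, was between 13.01 and 13.45 in 5 hearts of the higher side and between 10.42 and 11.63 on the lower side, with MatKO 2 at 9.25. Hbb-bt, a further adult globin that was measured, had no unadjusted p under 0.05 in limma.

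**Figure D1:**
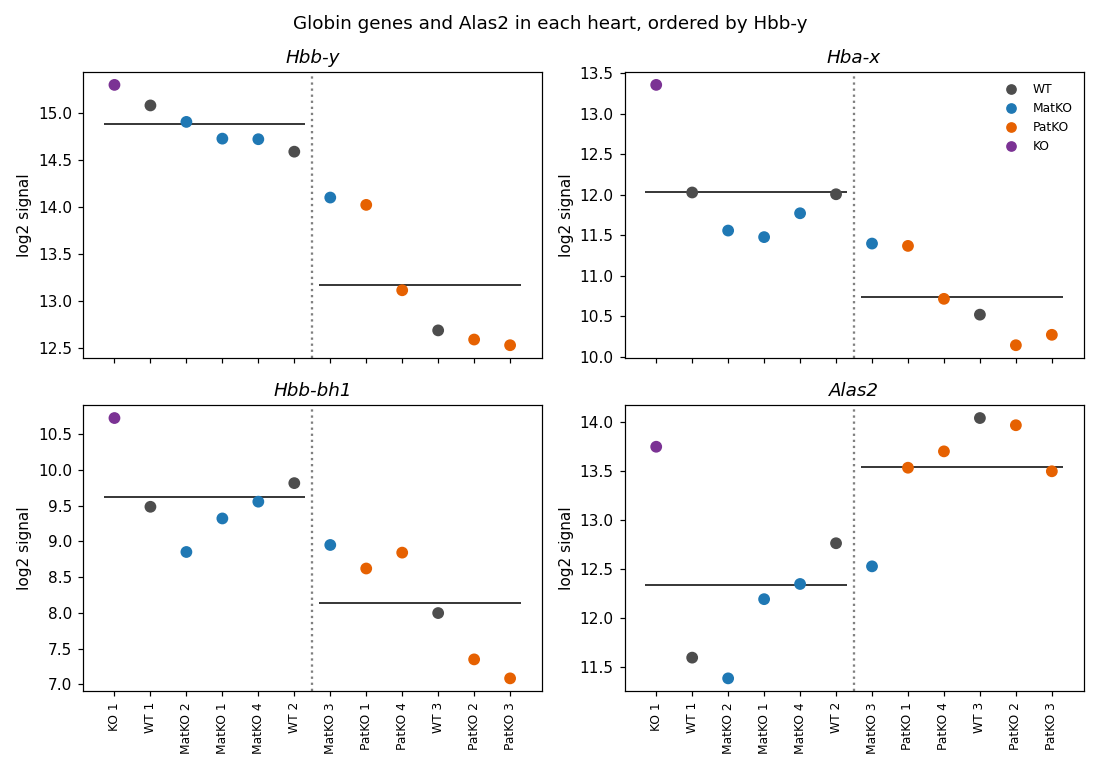
Log2 signal of Hbb-y, Hba-x, Hbb-bh1 and Alas2 in each of the 12 hearts, ordered from the highest Hbb-y at the left; colours mark genotype, horizontal lines the mean of each side and the dotted line the boundary. KO 1 has the highest Hba-x, at 13.36, and its Alas2, at 13.75, lies among the values of the lower side.

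Alas2, the red cell enzyme that starts heme synthesis, ran against the embryonic globins, and the promoters of this pair of red cell genes are shown because their transcripts moved in opposite directions between the same hearts. The sequences are RefSeq promoters of GRCm38.p6, 250 bases before to 50 after the gene start, on the plus strand for both genes. Hba-x lies at chr11:32276350-32276649 and Alas2 at chrX:150547167-150547466. Capitals mark the core GATAA of the motif read by GATA factors, which switch on red cell genes, searched on both strands, where the reverse strand reads TTATC.
Hba-x: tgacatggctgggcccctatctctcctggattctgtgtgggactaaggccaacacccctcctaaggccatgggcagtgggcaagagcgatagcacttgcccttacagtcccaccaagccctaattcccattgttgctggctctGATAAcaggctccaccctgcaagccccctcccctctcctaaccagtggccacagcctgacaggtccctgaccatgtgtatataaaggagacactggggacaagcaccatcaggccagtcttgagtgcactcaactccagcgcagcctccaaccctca
Alas2: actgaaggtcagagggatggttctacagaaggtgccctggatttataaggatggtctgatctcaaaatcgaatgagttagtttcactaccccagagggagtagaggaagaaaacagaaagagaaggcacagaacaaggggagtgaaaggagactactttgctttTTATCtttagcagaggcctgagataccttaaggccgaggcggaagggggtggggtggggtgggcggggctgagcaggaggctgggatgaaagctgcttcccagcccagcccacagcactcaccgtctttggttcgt
Each promoter held 1 match, 107 bases before the start in Hba-x and 86 bases before it, on the opposite strand, in Alas2. Of 32851 promoters of the same length, 25.4% held the same letters, so a match of this kind is common and is given as a description only. A promoter entry was found for 87 of the 116 genes named here and in the closing observations.

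Alas2 was at 13.75 in KO 1, 11.59 in WT 1, 11.38 in MatKO 2, 12.19 in MatKO 1, 12.35 in MatKO 4 and 12.76 in WT 2. On the lower side it was at 12.53 in MatKO 3, 13.53 in PatKO 1, 13.70 in PatKO 4, 14.04 in WT 3, 13.97 in PatKO 2 and 13.50 in PatKO 3. KO 1 stood apart from the rest of the higher side, and MatKO 3 lay below WT 2, so the sides overlapped. The difference was -1.21 ± 0.37, with an adjusted p of 0.473 in limma, and it was -1.17 ± 0.38 with genotype in the fit.

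Across the array, 1 of 45265 probes was called at an adjusted p under 0.05 (0.00221%), and 3042 (6.72%) had an unadjusted p under 0.05. The study's own criterion asks for an unadjusted p below 0.01 and a log2 difference of more than 0.4 in either direction, and 513 probes met it (1.13%). Of these, 249 were higher (0.550%) and 264 lower (0.583%) on the higher side. With genotype in the fit no probe was called, while 416 met the criterion (0.919%). With the Hbb-y level as a number, 210 probes were called (0.464%), 95 higher (0.210%) and 115 lower (0.254%) with more Hbb-y. All 210 kept their direction with genotype added to that fit, a fit in which 0 probes were called. Since the sides are a measured value and not a treatment, a p here says only whether a probe goes with Hbb-y over these hearts. With genotype in the 2-sided fit, the sides are compared only within WT and MatKO, each with 1 heart on the lower side. A p lost in that fit therefore does not show that a pattern is absent within a genotype. In whole hearts, fewer cells of a type and less RNA per cell cannot be told apart.

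The called probe belonged to Pnpla3, a lipase and acyltransferase of lipid droplets. It was dim, between 6.29 and 7.17 on the higher side and between 5.09 and 5.70 on the lower, with no overlap, a difference of 1.28 ± 0.15 and an adjusted p of 0.0419. The call was lost without any one of 8 of the hearts, and with genotype in the fit the difference was 1.34 with an adjusted p of 0.856.

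Heme and iron genes were mostly lower on the higher side. Of 19 measured genes of heme synthesis and iron uptake, Alas2 among them, 15 were lower and 4 higher on the higher side, with a median of -0.14, and 6 were lower at an unadjusted p under 0.05, or 2 with genotype in the fit. Over the brightest probe of all 19055 genes, 50.6% of the differences were above 0, 749 genes (3.93%) were higher and 764 (4.01%) lower at that p, and the median difference was 0.0017. Fech, which inserts the iron into heme, was at 8.45, 9.04 and 9.72 (lowest, median and highest) on the higher side and at 8.99, 9.71 and 10.46 on the lower, a difference of -0.69 ± 0.27. Slc25a37, the importer of iron into red cell mitochondria, differed by -0.74 ± 0.29, Steap3, a reductase of endosomal iron, by -1.08 ± 0.42, and Alad, the next heme enzyme after Alas2, by -0.42 ± 0.19. Adjusted p for these genes lay between 0.608 and 0.738, and in each of them the sides overlapped. A second Steap3 probe, with a mean of 7.15 against 7.40 for the brightest, differed by only -0.25 ± 0.23, and the dimmer ones by -0.11 and -0.19. KO 1 had the highest Slc25a37 of all hearts, at 12.78, and the highest mean of the heme and iron list, at 0.32 above the average of all hearts.

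Red cell membrane and cytoskeleton genes gave 21 lower and 3 higher of 24, with a median of -0.22, and 5 lower and 1 higher at an unadjusted p under 0.05, or 2 lower with genotype in the fit. The list did not follow Hbb-y heart by heart. Relative to the average of all hearts, its mean was highest in KO 1, at 0.60, and 0.08 in WT 2. The rest of the higher side lay between -0.65 and -0.21. The lower side ran from -0.18 in MatKO 3 to 0.42 in PatKO 4, with PatKO 3 at -0.06. Ank1, the ankyrin that ties the membrane to the cytoskeleton, was 0.37 ± 0.15 lower and Gypc, a glycophorin, 0.32 ± 0.12 lower on the higher side, with adjusted p of 0.653 and 0.607. Car1, a carbonic anhydrase of red cells, did not overlap between the sides, at 5.04 to 5.37 against 5.44 to 5.94, with a difference of -0.54 ± 0.10 and an adjusted p of 0.177, but these are values near background. Slc2a1, the glucose transporter of early red cells and fetal muscle, was the gene of the list that was higher at that p, by 0.24 ± 0.10 with an adjusted p of 0.667. Of 197 probes whose sides did not overlap (0.435%), 95 were above and 102 below on the higher side. Red cell regulators split evenly, 10 higher and 9 lower, with Foxo3, a factor of late red cell maturation that other cells also express, at 7.31 to 7.73 against 7.83 to 8.26, a difference of -0.46 ± 0.10 (adjusted p of 0.254). Hbq1a, a theta globin outside the lists that was added after its values were seen, differed by -1.16 ± 0.36.

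Among white cell lists, neutrophil genes were mostly lower and mast cell and macrophage genes were split. Of 22 neutrophil granule and stefin genes, 20 were lower with a median of -0.31, but 16 of the 22 had a mean under 7, and 3 had an unadjusted p under 0.05. Among them Csf3r, the G-CSF receptor, differed by -0.55 ± 0.16 and Stfa1, a stefin, by -1.43 ± 0.58, while S100a9 gave -1.31 ± 0.71. The Csf3r probe was dim, with a mean of 6.08, and the dimmer probes of that gene differed by between -0.06 and 0.08. Of 10 mast cell genes, 6 were lower and 4 higher, with 3 lower and 1 higher below that p. The higher one was the protease Mcpt4. Cpa3, a carboxypeptidase, was at 8.02, 8.75 and 10.17 on the higher side and 9.51, 9.92 and 10.75 on the lower, a difference of -1.08 ± 0.33. The proteases Tpsb2 and Cma1 differed by -0.93 ± 0.23 and -0.93 ± 0.35. Both were dim, with means of 5.74 and 6.92, and the other Tpsb2 probe differed by only -0.06. WT 2 had the highest Cpa3 of the higher side. Macrophage genes gave 10 higher and 12 lower, which became 15 and 7 with genotype in the fit, with Lyve1, a receptor of tissue macrophages and lymphatics, at -0.52 ± 0.23. None of these genes passed an adjusted p of 0.05.

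Heart muscle genes that climb in later development were mostly lower where Hbb-y was higher. Of 44 such genes, 38 were lower and 6 higher, with a median of -0.14, and 13 lower and 0 higher had an unadjusted p under 0.05. With the Hbb-y level as a number, 18 lower and 0 higher had such a p, against 1264 lower (6.63%) and 1062 higher (5.57%) of all genes, and with genotype added to the 2-sided fit the median was -0.07 and 1 lower gene was left, against 2.82% of all genes lower in that fit. The list mean was between -0.18 and -0.09 of its average over all hearts in 5 hearts of the higher side, but 0.11 in WT 2. On the lower side it was -0.07 in MatKO 3 and -0.02 in PatKO 1, and between 0.12 and 0.18 in the other 4 hearts.

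Ckmt2, the mitochondrial creatine kinase of muscle, was at 11.60 in KO 1, 11.38 in WT 1, 11.25 in MatKO 2, 11.26 in MatKO 1, 11.30 in MatKO 4 and 12.06 in WT 2. On the lower side it was at 11.43 in MatKO 3, 11.33 in PatKO 1, 12.58 in PatKO 4, 12.88 in WT 3, 12.83 in PatKO 2 and 12.87 in PatKO 3. The 4 hearts with the lowest Hbb-y thus stood above all others, while MatKO 3 and PatKO 1, just below the boundary, were at the level of the higher side. The difference between the sides was -0.85 ± 0.29 with an adjusted p of 0.567, and per log2 unit of Hbb-y the gene fell by 0.60 ± 0.09, with an adjusted p of 0.0137 in limma. Within WT the higher hearts were 1.16 below the lower heart, and within MatKO 0.16 below, each against a single heart.

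Perm1, a muscle partner of the mitochondrial regulators PGC-1 and ERR, had the same arrangement: the 4 hearts with the lowest Hbb-y were between 12.38 and 12.67, the others at or below 12.13, and it fell by 0.51 ± 0.08 per log2 unit of Hbb-y (adjusted p of 0.0223). Casq2, the calcium store protein of the sarcoplasmic reticulum, fell by 0.24 ± 0.05 per unit, from a median of 13.49 on the lower side to 13.05 on the higher (adjusted p of 0.0394). Ckm, the cytosolic muscle creatine kinase, differed by -0.30 ± 0.09 and Ryr2, the calcium release channel, by -0.26 ± 0.08 at its brightest probe, both without passing either fit. A dim second Ryr2 probe, with a mean of 6.87, did not overlap between the sides and differed by -0.81 ± 0.11 (adjusted p of 0.0641), while the remaining 3 probes were dimmer still and differed by less than 0.1. Ppargc1a, which drives mitochondrial growth, gave -0.20 ± 0.19, and 0.11 with genotype in the fit, so that its direction was not settled.

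**Figure D2:**
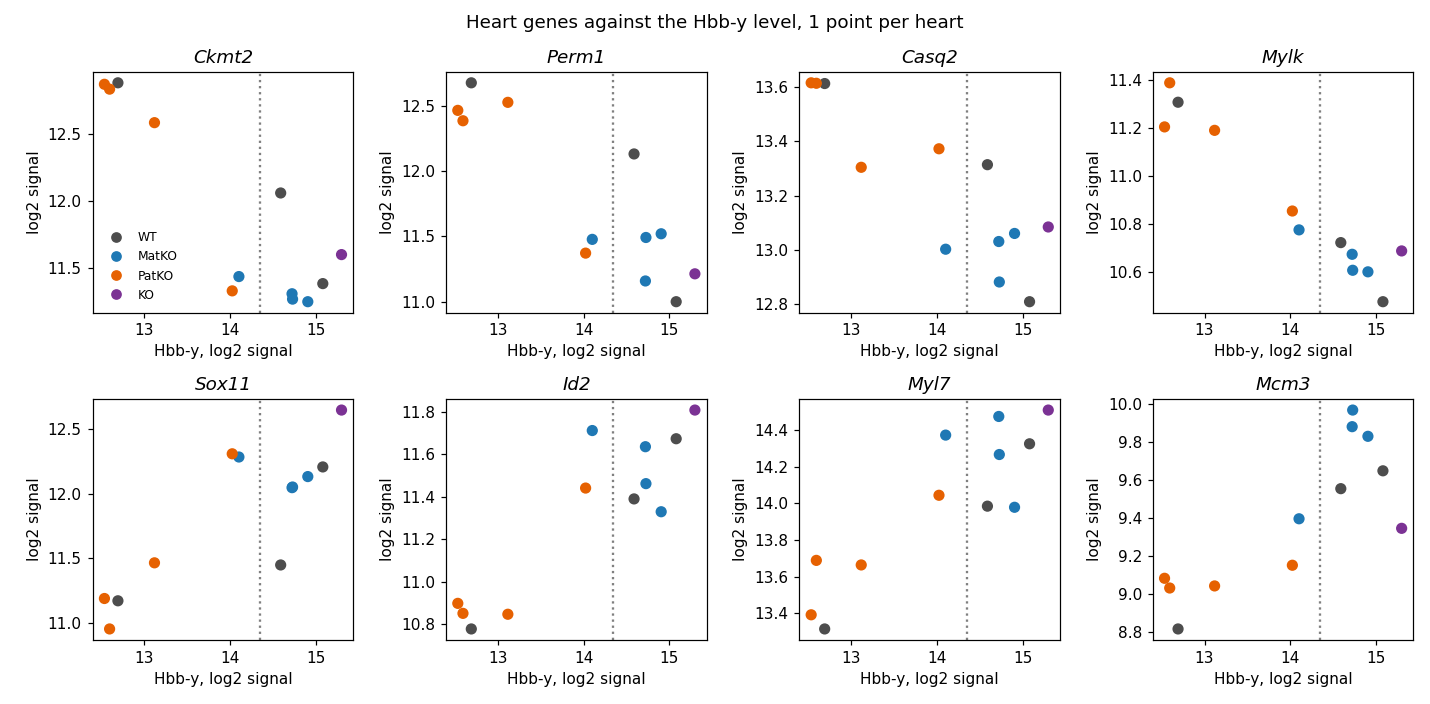
Log2 signal of 8 heart genes against the Hbb-y signal of the same heart, 1 point per heart, coloured by genotype, with the boundary dotted. Ckmt2, Perm1, Casq2 and Mylk are highest, or among the highest, in the 4 hearts with the lowest Hbb-y, and Sox11, Id2 and Myl7 are lowest or nearly lowest there.

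Mitochondrial fuel genes leaned the same way by smaller amounts. Of 35 genes of fatty acid uptake and oxidation, 33 were lower and 2 higher, with a median of -0.15, 5 of them lower at an unadjusted p under 0.05, and 14 lower with the Hbb-y level as a number. With genotype in the fit, the median was -0.07 and 1 gene kept such a p. Echs1, the enoyl-CoA hydratase of fatty acid oxidation, was at 13.20, 13.36 and 13.50 on the higher side and 13.39, 13.67 and 13.77 on the lower (-0.27 ± 0.08). Acadm, the medium-chain dehydrogenase, gave -0.25 ± 0.08, Acaa2, the thiolase of the last step, -0.28 ± 0.12 and Etfa, an electron carrier, -0.15 ± 0.07. The adjusted p of these genes lay between 0.483 and 0.741. WT 2 stood against its side for the whole list, at 0.31 above the average of all hearts, the highest of the 12, while the other 5 hearts of the higher side lay between -0.22 and -0.11.

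Among citric acid cycle and pyruvate dehydrogenase genes, 21 of 28 were lower, with a median of -0.14, and 5 lower at an unadjusted p under 0.05, or 2 with genotype in the fit. Pdhb, a core subunit of pyruvate dehydrogenase, was at 13.59 in KO 1, 12.84 in WT 1, 12.51 in MatKO 2, 12.73 in MatKO 1, 12.88 in MatKO 4 and 13.74 in WT 2. The lower side ran from 13.52 in MatKO 3 to 14.09 in WT 3, with PatKO 1 at 13.63, PatKO 4 at 13.94, PatKO 2 at 13.73 and PatKO 3 at 13.93. Only KO 1 and WT 2 reached the range of the lower side, and the difference was -0.76 ± 0.20 (adjusted p of 0.386). It was -0.79 within WT and -0.81 within MatKO, each against a single heart. All 3 Pdhb probes had the same direction. Pdp1, the phosphatase that turns pyruvate dehydrogenase on, fell by 0.22 ± 0.04 per log2 unit of Hbb-y with an adjusted p of 0.0411. Sdhb, a subunit of succinate dehydrogenase, differed by -0.18 ± 0.06, Mdh1, the cytosolic malate dehydrogenase, by -0.21 ± 0.09 and Cs, citrate synthase, by -0.16 ± 0.08.

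In the respiratory chain and ATP synthase, 31 of 40 genes were lower with a median of -0.12, and 9 lower and 0 higher genes had an unadjusted p below 0.05, which left 1 lower gene with genotype in the fit. Cox8b and Cox7a1, subunits of complex IV in muscle, differed by -0.31 ± 0.12 and -0.33 ± 0.14, and Ndufa9, of complex I, by -0.17 ± 0.06. Uqcrfs1, the iron-sulfur protein of complex III, was read by a dim probe and gave -0.57 ± 0.18. Genes of creatine, ketone and amino acid oxidation had the most members without overlap: 17 of 22 were lower with a median of -0.16, 8 at an unadjusted p under 0.05, and 3 did not overlap, against 0.252% of all genes that lay below without overlap. These were Hibadh of valine breakdown, at 13.97 to 14.19 against 14.28 to 14.46 (-0.25 ± 0.06), Mccc2 of leucine breakdown, at 8.69 to 9.46 against 9.50 to 9.71 (-0.38 ± 0.12), and Bckdhb, of the branched-chain dehydrogenase, at 10.16 to 11.35 against 11.36 to 12.00 (-0.60 ± 0.19). Their adjusted p lay between 0.363 and 0.516. With genotype in the fit, 2 of the 22 genes were lower at an unadjusted p under 0.05. Pcca, of propionate breakdown, fell by 0.21 ± 0.04 per log2 unit of Hbb-y with an adjusted p of 0.0418.

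Glucose genes were split, 13 higher and 14 lower of 27, with a median of -0.03. Slc2a3, a glucose transporter of embryonic tissues, was 0.43 ± 0.14 higher on the higher side, while Pfkm, the muscle phosphofructokinase, Pygm, the muscle glycogen phosphorylase, and Ldhb, the lactate dehydrogenase of heart, differed by -0.21 ± 0.07, -0.24 ± 0.09 and -0.34 ± 0.14. The adjusted p of these 4 genes lay between 0.530 and 0.656.

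**Figure D3:**
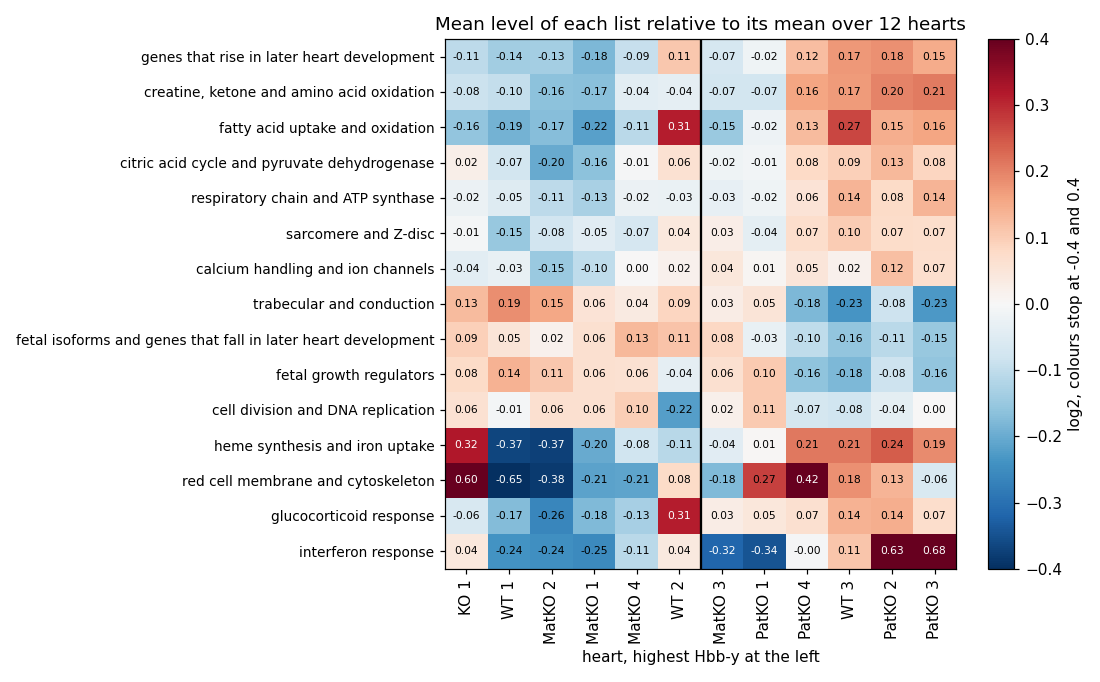
Mean level of 15 gene lists in each heart, in log2 relative to the mean of the list over the 12 hearts, with hearts ordered from the highest Hbb-y at the left and the boundary drawn as a line. The fuel and later-rising lists are below 0 in WT 1 and the MatKO hearts of the higher side and above 0 in the 4 hearts with the lowest Hbb-y; WT 2 stands against its side for fatty acid genes, at 0.31.

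Genes of the younger heart were more often higher where Hbb-y was higher. Of 24 fetal isoforms and genes that decline in later heart development, 15 were higher and 9 lower with a median of 0.10, and 6 higher and 1 lower gene had an unadjusted p below 0.05, which left 1 higher gene with genotype in the fit. Myl7, the atrial light chain that the early ventricle also uses, was at 13.98, 14.29 and 14.51 on the higher side and 13.31, 13.68 and 14.37 on the lower, where MatKO 3 was the heart at 14.37. It was 0.35 ± 0.06 higher per log2 unit of Hbb-y (adjusted p of 0.0256). Tnnt1, the slow skeletal troponin T of the fetal heart, was at 12.96, 13.77 and 14.06 against 12.28, 12.64 and 13.82, a difference of 0.79 ± 0.26 (adjusted p of 0.557), in which KO 1 was the lowest of the higher side. Igfbp2, a fetal binding protein of insulin-like growth factors, was 0.79 ± 0.20 higher at its brightest probe and 1.02 ± 0.14 higher at the other, where the sides did not overlap (8.57 to 9.50 against 7.69 to 8.29, adjusted p of 0.0718). Both probes passed with the Hbb-y level as a number, at adjusted p of 0.0256 and 0.00814.

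Fetal growth regulators gave 20 higher and 5 lower of 25, with a median of 0.14, and 3 higher and 1 lower gene had an unadjusted p below 0.05, and 0 with genotype in the fit. Cdkn1c, an imprinted inhibitor of cell division, was 0.40 ± 0.12 higher (adjusted p of 0.451), and Sox11 and Sox4, factors of immature tissues, 0.53 ± 0.26 and 0.35 ± 0.17 higher. Sox11 rose by 0.45 ± 0.08 per log2 unit of Hbb-y (adjusted p of 0.0379), with the 4 hearts of lowest Hbb-y between 10.95 and 11.46, WT 2 at 11.45 and all others between 12.05 and 12.65. Dlk1, an imprinted fetal growth gene, ran the other way at -0.29 ± 0.12 (adjusted p of 0.672), and Igf2bp3, an RNA-binding protein of fetal growth, differed by 0.17 ± 0.09. Grb10, the imprinted growth inhibitor next to Ddc, lay between 15.18 and 15.44 in all hearts, close to the ceiling.

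Of 16 trabecular and conduction genes, 12 were higher and 4 lower with a median of 0.13, and 5 higher and 0 lower had an unadjusted p under 0.05. With genotype in the fit, 12 were still higher but 0 had such a p. Id2, an inhibitor of basic helix-loop-helix factors, was at 11.33 to 11.81 on the higher side, while the lower side held MatKO 3 at 11.71 and PatKO 1 at 11.44 above 4 hearts between 10.78 and 10.90. It rose by 0.33 ± 0.05 per log2 unit of Hbb-y (adjusted p of 0.0171). Slit2, a guidance ligand, rose by 0.31 ± 0.05 per unit (adjusted p of 0.0218), and Bmp10, the growth factor of trabecular muscle, by 0.61 ± 0.11 per unit (adjusted p of 0.0343). Bmp10 was at 7.10, 7.38 and 8.06 on the higher side and at 5.58, 6.72 and 7.44 on the lower. Its difference was 2.16 within WT and -0.20 within MatKO, but each genotype had 1 heart on the lower side, and the test of a difference between them gave an adjusted p of 0.723 in limma. Hey1, a Notch target, was 0.48 ± 0.14 higher (adjusted p of 0.442), and Nppa, the atrial peptide, lay between 15.28 and 15.47 in all hearts, where the array is near its ceiling.

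Sarcomere genes gave 25 lower and 9 higher of 34, with a median of -0.06, and calcium and channel genes 22 lower and 8 higher of 30, with a median of -0.11. Fhl2, a LIM protein of the Z-disc, was at 13.73, 13.98 and 14.20 against 14.12, 14.37 and 14.53 (-0.38 ± 0.09, adjusted p of 0.356). Synpo2l and Ldb3, further Z-disc proteins, differed by -0.28 ± 0.08 and -0.33 ± 0.10, and Kcna5, a potassium channel, by -0.57 ± 0.17. Other Ldb3 probes, with means of 10.55, 10.28 and 10.13, differed by -0.09 ± 0.15, -0.26 ± 0.10 and -0.12 ± 0.16. Abcc9, the regulatory subunit of the ATP-sensitive potassium channel in muscle and pericytes, fell by 0.21 ± 0.04 per log2 unit of Hbb-y (adjusted p of 0.0343).

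Cell division genes as a list did not lean to either side, with 23 higher and 18 lower of 41 and a median of 0.01, but 5 higher and 2 lower genes had an unadjusted p below 0.05. With the Hbb-y level as a number these were 12 and 3. Mcm3, of the helicase that opens DNA for replication, was at 9.35 in KO 1, 9.65 in WT 1, 9.83 in MatKO 2, 9.97 in MatKO 1, 9.88 in MatKO 4 and 9.55 in WT 2. It was at 9.40 in MatKO 3, 9.15 in PatKO 1, 9.04 in PatKO 4, 8.82 in WT 3, 9.03 in PatKO 2 and 9.08 in PatKO 3. Only KO 1 and MatKO 3 crossed, and the difference was 0.62 ± 0.12 (adjusted p of 0.191). It was 0.78 within WT and 0.50 within MatKO, each against a single heart. Kif11, the spindle motor, was 0.38 ± 0.10 higher and Cdk4, a kinase that starts the cycle, 0.26 ± 0.10 higher. The genes named here are all from the higher ones. Past the study's criterion the list had 1 higher and 1 lower gene, so they do not stand for the list.

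**Figure D4:**
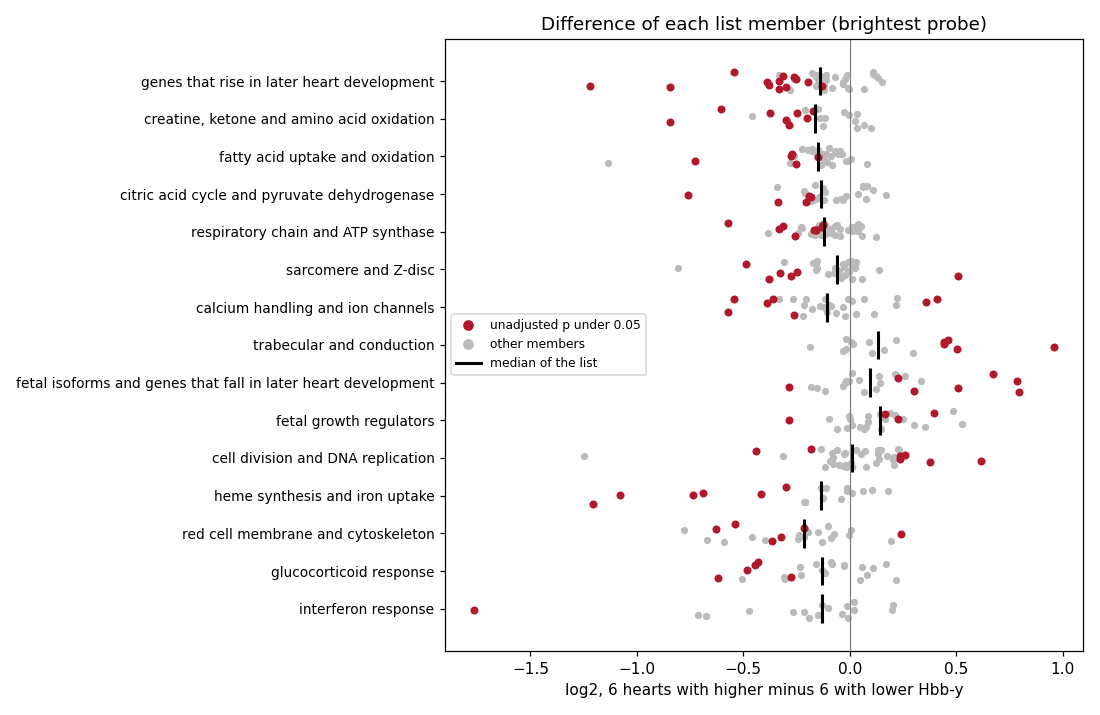
Difference in log2 between the 6 hearts with higher and the 6 with lower Hbb-y for each measured member of 15 lists, with members at an unadjusted p under 0.05 in red and the list median as a black bar. Fatty acid and later-rising genes lie mostly left of 0, with medians of -0.15 and -0.14, and trabecular genes mostly right of it, with a median of 0.13.

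In the lists of other heart cell types, few genes were without overlap between the sides. They were 2 epicardial genes and 1 endothelial gene above and 1 smooth muscle gene below. Of all genes, 0.252% lay above and 0.252% below without overlap. Krt19, a keratin of the epicardium, did not overlap between the sides, at 7.50 to 7.80 against 6.71 to 7.20, a difference of 0.70 ± 0.09 (adjusted p of 0.0641). It was 0.69 within WT and 0.47 within MatKO, each against a single heart, which in MatKO was the one without clear Xist signal. Bnc1, a transcription factor of the same layer, was 0.83 ± 0.24 higher. The epicardial list as a whole had 11 of 15 genes higher and a median of 0.25, which was 0.01 with genotype in the fit. Endothelial and endocardial genes were split, 14 higher and 13 lower of 27, with a median of 0.0053. Among them Plvap, a protein of vessel fenestrations, did not overlap between the sides, at 11.34 to 11.57 against 10.88 to 11.21 (0.45 ± 0.07, adjusted p of 0.115), and Npr3, the natriuretic peptide clearance receptor of endocardium, rose by 0.40 ± 0.06 per log2 unit of Hbb-y (adjusted p of 0.0135). Between the sides, 3 higher and 1 lower endothelial gene had an unadjusted p under 0.05 in limma. With the Hbb-y level as a number these were 4 and 4, so the list went both ways. Smooth muscle and pericyte genes gave 8 higher and 11 lower of 19, with a median of -0.06, and 1 higher and 5 lower genes had an unadjusted p below 0.05. Mylk, the myosin light chain kinase, was at 10.48 to 10.72 on the higher side and 10.78 to 11.39 on the lower without overlap (-0.49 ± 0.11, adjusted p of 0.255) and fell by 0.29 ± 0.03 per unit (adjusted p of 0.00498). Myh11, the smooth muscle myosin, fell by 0.72 ± 0.10 per unit (adjusted p of 0.00842) at a dim probe.

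Of 23 glucocorticoid response genes, 17 were lower with a median of -0.13, and 5 lower and 0 higher had an unadjusted p under 0.05, or 1 lower with genotype in the fit. Klf9, a target of the glucocorticoid receptor, was at 10.26, 10.50 and 11.08 on the higher side and 10.66, 11.29 and 11.41 on the lower, and fell by 0.38 ± 0.06 per log2 unit of Hbb-y (adjusted p of 0.0135). Brown fat and adipocyte genes gave 4 higher and 7 lower of 11, with a median of -0.04, which was 0.04 with genotype in the fit. Plin4, a coat protein of lipid droplets, was between 7.38 and 7.71 in 5 hearts of the higher side but at 10.15 in WT 2, and on the lower side at 7.31 in MatKO 3, 8.80 in PatKO 1 and between 9.97 and 10.47 in the others. It fell by 1.10 ± 0.21 per unit (adjusted p of 0.0447), and Pparg, the regulator of fat cells, by 0.48 ± 0.09 (adjusted p of 0.0341). Rsad2, an antiviral gene of the interferon response, was between 11.04 and 12.37 in the 4 hearts with the lowest Hbb-y and between 8.20 and 9.92 in all others, and fell by 1.37 ± 0.21 per unit (adjusted p of 0.0167). Interferon genes gave 4 higher and 13 lower of 17, and 9 higher and 8 lower with genotype in the fit. As a list they were above their average in PatKO 2 and PatKO 3, at 0.63 and 0.68, but near it in PatKO 4, and lowest in PatKO 1, at -0.34.

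Of the probes called with the Hbb-y level as a number, a few outside the lists were singled out after their values were seen. Mgll, which releases fatty acids from monoglycerides, fell by 0.42 ± 0.07 per log2 unit of Hbb-y, and Gpihbp1, which holds lipoprotein lipase on capillaries, by 0.34 ± 0.06, with adjusted p of 0.0194 and 0.0318. Mdk, the growth factor midkine of embryonic tissues, and Tle1, a corepressor, rose by 0.32 ± 0.06 and 0.60 ± 0.09, with adjusted p of 0.0295 and 0.0143.

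The named genes with the largest differences past the study's criterion, at a mean of 7 or more, were in part not of these groups. Besides the 2 embryonic globins, the 10 largest increases were Col2a1, Arhgap8, Gpatch11, Igfbp2, Pilra, Bmp10, Zfp286 and Ryr3, with log2 differences from 1.24 for Col2a1, the cartilage-type collagen also found in valves, to 0.88 for a probe of Ryr3. The brightest Gpatch11 probe lay between 11.11 and 11.74 in all hearts and did not share the difference of the dimmer one. Besides Alas2, the 10 largest decreases were Lynx1, Gramd4, Ddo, Ctsc, Ly6c1, Olfr608, Cfap20dc, Gm9780 and Plac9a. Ly6c1, a surface protein of endothelium and white cells, was at 7.44, 8.15 and 8.84 against 8.57, 9.97 and 10.67 (-1.48 ± 0.36) and fell by 0.94 ± 0.09 per log2 unit of Hbb-y (adjusted p of 0.00276). In some of the others 1 heart stood far from its side. Gramd4 was at 5.14 in WT 2 and at 8.08 to 9.06 in the rest of the higher side, against 9.17 to 9.99 on the lower, and Ctsc, a lysosomal protease, was at 6.19 in WT 1 and at 10.17 to 10.47 in the rest, against 10.93 to 11.42.

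Over the alternative fits, 104 of the 107 genes tested this way kept their direction, with the exceptions of Ppargc1a, Ddc and the liver gene Afp, which was 1.54 ± 1.55 lower on the higher side. Many of these genes were picked for their difference in these same hearts, and the alternatives reuse the hearts. A kept direction is therefore no independent support. With Xist as a covariate 0 probes were called and 778 met the criterion, and with the liver list mean 4 were called and 588 met it. Without WT 2 and MatKO 3, the hearts next to the boundary, 27 probes were called and 1002 met the criterion, and Krt19, Plvap, Klf9 and Plin4 were among those called. In that comparison of 5 against 5 hearts, 21 later-rising genes and 15 fatty acid genes were lower at an unadjusted p under 0.05, with medians of -0.23 and -0.24, against 5.60% of all genes that were lower. The hearts left out stood against their sides, with fatty acid list means of 0.31 in WT 2 and -0.15 in MatKO 3. What remained of the lower side was WT 3 and the 4 PatKO hearts, so genotype and side were still harder to tell apart. The larger counts are therefore no stronger result. Whether the difference between the sides was itself unequal in WT and MatKO could not be decided. Each of these genotypes had 1 heart on the lower side, so no conclusion is drawn from that test.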

How the data were processed

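The deposited values used here are log2 signals of 45267 probes on 12 Illumina WG-6 mouse arrays. Per the methods, the authors read the arrays in GenomeStudio, corrected background with neqc, normalized between arrays and used limma; versions, probe filter and genome build are not stated there. The methods text also names another array maker, and the labels and probe names are Illumina's. All arrays have nearly equal quantiles, so values are relative levels. A scanner table of 24 columns (12 of signal) was not used, because no source pairs its columns with hearts.

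The 12 arrays were ranked by the brighter Hbb-y probe and split 6 against 6. Both Hbb-y probes were left out, and 45265 probes were compared between the sides by lmFit and eBayes of limma 3.58.1 (R 4.3.3; no covariate), with Benjamini-Hochberg adjustment over all of them and a call at 0.05. Genotype was also fitted as a covariate. Of the probes, 34875 carried 1 symbol in the platform annotation, 18 several and 10374 none. A gene is given by its brightest probe. Of 862 genes in 41 lists, 786 were measured. The members, lists and tests were chosen with earlier results of these data known. Named genes are the 10 largest increases and decreases past the study's criterion with a mean of 7 or more, the members of each list with the smallest p (up to 6 for blood, maturation and metabolism lists, up to 3 for others), and fixed genes such as Ckmt2, Pdhb and Alas2. Alternatives were a replicate block, the Hbb-y level as a number, Xist or liver covariates, other variance settings, dim probes left out, 100 added to the linear signal, the other Hbb-y probe, 5 against 5 hearts and each heart left out. The Hbb-y level together with genotype was added after seeing the data. Replicate numbers name separate embryos and are not said to pair them. Precision is limited by the number of arrays.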

Additional observations from a re-analysis of the deposited data

Results flagged for a closer look

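In 19 of 232 sets of 6 hearts, that is, 1 named gene on 1 side, the highest or lowest heart stood apart from the other 5 by Dixon's criterion for 6 samples, which chance alone meets in about 1 of 20 sets. WT 2 accounted for 8 of them on the higher side. There it was at 10.15 for Plin4 against 7.38 to 7.71 in the others, at 14.90 for Cox8b against 14.29 to 14.51, at 11.08 for Klf9 against 10.26 to 10.56, at 6.24 for Myh11 against 4.96 to 5.24 and at 10.89 for Lyve1 against 9.66 to 9.99. For Plin4, Cox8b, Klf9 and Lyve1 these WT 2 values lay within the range of the lower side. It was lower than the rest of its side for Bckdhb, at 10.16 against 11.07 to 11.35, Lynx1, at 6.94 against 8.61 to 9.27, and Gramd4, at 5.14 against 8.08 to 9.06.

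KO 1 stood apart for Hba-x, at 13.36 against 11.48 to 12.03, and for Ddc, the deleted gene, at 9.12 against 13.42 to 14.12. MatKO 2 was at 9.25 for Hbb-b2 against 13.01 to 13.45, MatKO 1 at 10.35 for Pygm against 10.70 to 10.88, WT 1 at 6.19 for Ctsc against 10.17 to 10.47 and MatKO 4 at 7.17 for Pnpla3 against 6.29 to 6.52. On the lower side, MatKO 3 was at 12.53 for Alas2 against 13.50 to 14.04, and PatKO 1 was at 14.31 for Sdhb against 14.45 to 14.51 and at 5.70 for Pnpla3 against 5.09 to 5.26. PatKO 2 was at 14.95 for Dlk1 against 14.38 to 14.58, and PatKO 3 at 14.99 for Ndufa9 against 14.82 to 14.88.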

How the results depend on the processing

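The count of called probes, 1 in the 2-sided fit, was 0 with genotype as a covariate, 0 with the replicate block, 0 with Xist as a covariate, 0 with array weights, 0 with dim probes left out and 0 with 100 added to the linear signal. It was 4 with the liver covariate, 2 with a trended and robust variance, 27 with 5 against 5 hearts, 210 with the Hbb-y level as a number and 0 with that level and genotype together. Leaving out single hearts gave 0 to 14, the highest without MatKO 3, and 8 without WT 1. The replicate numbers do not pair the hearts, so the replicate block only shares out numbers. The count past the study's criterion, 513, was 341 with the replicate block, 240 with the Hbb-y level as a number, 778 with Xist as a covariate, 313 with dim probes left out, 211 with 100 added and 1002 with 5 against 5 hearts, and between 397 and 766 without single hearts. The cause of these shifts was not tested. Of 107 genes, many of them picked for their difference in these same hearts, 104 kept their direction in all 24 alternatives. Ppargc1a gave 0.11 with genotype as a covariate, Ddc gave -0.17 with genotype as a covariate, and Afp gave 0.064 with the Hbb-y level as a number, 0.25 with that level and genotype, and 0.22 with the liver covariate. The liver covariate is a mean of liver genes and takes up the signal that Afp shares with them. Of 984 list medians recomputed, 19 moved by more than the spread between hearts, in 14 of 41 lists, and the median of 18 of the 41 lists changed sign in at least 1 alternative. Dim probes near the array floor and globin probes near its ceiling hold little information on size.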

Other observations

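Of 28 fibroblast and valve matrix genes, 16 were higher and 12 lower on the side with higher Hbb-y, with a median of 0.028, and 4 in each direction had an unadjusted p below 0.05. With genotype in the fit, 11 were higher and 17 lower, with a median of -0.12. Mfap5, a protein of elastic microfibrils, and Thy1, a fibroblast surface protein, differed by -0.45 ± 0.12 and -0.57 ± 0.17, and Hapln1, a link protein of matrix in cartilage and valve cushions, by 0.74 ± 0.28. Clock genes gave 6 higher and 10 lower of 16, with 2 higher and 4 lower below that p, and with Per2, a repressor of the clock, at -0.37 ± 0.14 and Clock, its activator, at -0.26 ± 0.11. Genes of the hypoxia response gave 11 higher and 10 lower of 21, with Egln3, an oxygen-sensing hydroxylase, at -0.54 ± 0.20. Of 14 ribosomal protein genes, 11 were higher, with a median of 0.033, and 9 were higher with genotype in the fit. The adjusted p of the 6 genes named here lay between 0.372 and 0.671 in limma.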
